A study of Homo sapiens with 15 samples.

Results

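The loops of 6 genes of polyamine synthesis and turnover, ODC1, AMD1, SRM, SMS, SAT1 and SMOX, were followed through androgen treatment of LNCaP cells. A loop, here a pair of 1 kb anchors listed in the deposited tables, was given to a gene where at least 1 bp of an anchor lay within 2.5 kb of the start of its canonical transcript. This gave 171 loops out of 505995 different anchor pairs in all, with 47 at ODC1, 42 at AMD1, 35 at SRM, 20 at SAT1, 14 at SMOX and 13 at SMS. All 6 genes had loops, as did 16251 of the 19856 protein-coding genes of the annotation.

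Polyamines (putrescine, spermidine and spermine) are small positively charged molecules that bind nucleic acids and are needed for cell growth. ODC1, ornithine decarboxylase, makes putrescine from ornithine and is the rate-limiting enzyme of the pathway. AMD1, adenosylmethionine decarboxylase, provides the aminopropyl donor, with which spermidine synthase (SRM) makes spermidine and spermine synthase (SMS) makes spermine. SAT1 acetylates spermidine and spermine so that they can be exported or broken down, and SMOX oxidises spermine back to spermidine. The prostate is known for its high production of polyamines, which are secreted into the seminal fluid.

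LNCaP is an androgen-responsive prostate cancer cell line, so that all libraries come from a single line. The cells were kept for 3 days in medium with serum stripped of steroids and then received 10 nM dihydrotestosterone (DHT), an androgen, for 30 m, for 4 h, for 16 h or for 72 h, while the 0 m cells received the vehicle, EtOH. Series of 5 values are given in this order of times. Chromatin contacts were measured by HiChIP, in which neighbouring DNA ends are ligated and fragments carrying a histone mark are enriched with an antibody, here to H3K27ac (a mark of active promoters and enhancers, 10 samples, replicates 1 and 2 at each time) or H3K4me3 (a mark of promoters, 5 samples). The comparisons ask how contacts of these promoters moved with time in DHT relative to vehicle. Vehicle was sampled at 0 m alone, so DHT and time in culture cannot be told apart.

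The deposited value is a contact frequency, a signal scaled by the authors among the 5 tables of a mark, and there was 1 value per loop, mark and time. No value therefore has a replicate error, and the 95% intervals given with them were computed from recovered read pairs, so that they hold counting error alone. Tables of the 2 marks were scaled apart, so levels are compared within a mark. A HiChIP contact depends both on how often the ends meet and on how much of the mark they carry, and in a bulk library more cells with a contact and more contact per cell cannot be told apart. Read pairs in loops lay between 2475168 and 4308555 per H3K27ac table and between 2153262 and 10675614 per H3K4me3 table, the highest being H3K4me3 at 4 h. The mean contact of all loops moved by log2 changes of 0.07 to 0.25 in H3K27ac and of -0.13 to 0.22 in H3K4me3 relative to 0 m. As a check of the line, the 6 markers of luminal prostate epithelium had between 7 and 59 loops (KLK2 7, KLK3 13, HOXB13 9, SLC45A3 16, TMPRSS2 56, FOLH1 59), while KRT5, TP63 and PTPRC had 0, CD3E had 5 and ALB had 2.

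Sequences of the far ends of the strongest loops of ODC1, AMD1, SAT1 and SMS are shown first, because these loops are described one by one. Each 1 kb anchor was searched on both strands for the half-site of the androgen response element (AGAACA), the relaxed full element (AGNACA, any 3 bases, TGTNCT), a forkhead motif (TGTTTAC) and an E-box (CACGTG). A full element can contain the half-site. Contacts were called in 5 kb bins, of which an anchor is the middle 1 kb, so the rest of each bin was not searched. Loop ends are placed by their anchors throughout. Of all 210061 different anchors in the tables, 55.6% held the half-site, 0.156% the full element, 14.5% the forkhead motif and 9.84% the E-box. The 8 anchors that were the strongest partner of a gene in a mark held a half-site in 3 cases and a forkhead motif in 2, and none held the full element or the E-box. The stretches below are read on the plus strand of hg19, with the motif in capitals, and a motif on the minus strand appears as its reverse complement. For ODC1 the middle 300 bases of the anchor are given all in lower case, because the anchor held none of these motifs.
ODC1 partner, chr2:10592351-10592650: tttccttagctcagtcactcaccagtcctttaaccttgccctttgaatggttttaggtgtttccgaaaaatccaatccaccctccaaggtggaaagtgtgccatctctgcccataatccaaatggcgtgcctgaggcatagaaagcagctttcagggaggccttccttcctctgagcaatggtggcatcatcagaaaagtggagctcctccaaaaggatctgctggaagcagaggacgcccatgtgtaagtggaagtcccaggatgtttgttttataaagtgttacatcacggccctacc
AMD1 partner, chr6:111202260-111202385, half-site: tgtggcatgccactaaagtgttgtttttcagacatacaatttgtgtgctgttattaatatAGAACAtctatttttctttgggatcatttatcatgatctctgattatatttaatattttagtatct
SAT1 partner, chrX:23907303-23907468, forkhead motif and half-site, both on the minus strand: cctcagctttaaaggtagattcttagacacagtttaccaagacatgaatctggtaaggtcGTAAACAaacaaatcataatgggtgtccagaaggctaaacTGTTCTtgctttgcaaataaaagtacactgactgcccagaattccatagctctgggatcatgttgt
SMS partner in H3K4me3, chrX:21962033-21962158, half-site on the minus strand: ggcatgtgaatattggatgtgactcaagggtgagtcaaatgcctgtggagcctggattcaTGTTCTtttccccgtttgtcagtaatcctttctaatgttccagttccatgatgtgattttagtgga
SMS partner in H3K27ac, chrX:21992679-21992805, forkhead motif on the minus strand: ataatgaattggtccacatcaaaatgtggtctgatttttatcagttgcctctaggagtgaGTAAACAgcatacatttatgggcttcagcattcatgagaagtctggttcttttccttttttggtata
The SRM anchor, the SMOX anchor and the H3K4me3 partner of SAT1 held none of the motifs either. These matches describe letters only.

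The genes fell apart in how many loops they held and over which distances. A promoter with any loop had a median of 20 loops (quartiles 6 and 38) and a median loop length of 180 kb. ODC1, AMD1 and SRM were above that median number and reached far, with median lengths of 245 kb, 245 kb and 280 kb. SAT1 was at the median number, and SMS and SMOX were below it, with median lengths of 85 kb, 50 kb and 52.5 kb. Loops called only in the H3K4me3 set made up 80.0% of the loops of SRM, 84.6% of SMS and 71.4% of SMOX, against 44.7% at ODC1, 33.3% at AMD1 and 30.0% at SAT1. Over all loops of the tables this share was 41.4%, and 13.6% were called in both sets. Loops called in both sets were the largest class at SAT1 (10 of 20) and AMD1 (16 of 42). The ends were spread on both sides of ODC1 (23 upstream, 24 downstream), whereas 33 of the 42 AMD1 loops ran upstream.

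Another coding promoter lay at the far end of 34.3% of SRM loops, 23.1% of SMS loops, 4 of the 20 SAT1 loops, 17.0% of ODC1 loops, 14.3% of SMOX loops and 11.9% of AMD1 loops. Over all loop ends at promoters this share was 26.5%. No loop joined the promoters of 2 of the 6 genes. SMS and SAT1 are both on the X chromosome, and 1 SAT1 loop of 1810 kb ended inside SMS, at the anchor that is also the strongest H3K27ac partner of the SMS promoter. It held 7 H3K27ac read pairs in all (2, 0, 0, 2 and 3 from 0 m to 72 h) and 1 H3K4me3 read pair, too few to compare times.

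The level of contact per loop separated AMD1 from the rest. Averaged over the 5 tables, the mean H3K27ac contact per loop was 4.34 for AMD1, 2.42 for ODC1, 1.97 for SAT1, 0.939 for SRM, 0.844 for SMS and 0.625 for SMOX, against a median of 0.973 over all promoters with loops. AMD1 lay above the other 5 genes in every H3K27ac table. ODC1 and SAT1 overlapped in their ranges over the tables (1.48 to 3.15 and 1.58 to 2.55), as did the neighbours SRM, SMS and SMOX (0.770 to 1.13, 0.653 to 0.914 and 0.485 to 0.848). In H3K4me3 the order was AMD1 (8.16), SRM (2.85), SMOX (2.27), ODC1 (1.68), SAT1 (1.65) and SMS (1.41), with a median of 1.66 over all promoters. AMD1 again stood above the others in every table, and the ranges of neighbours below it overlapped.

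**Figure D1:**
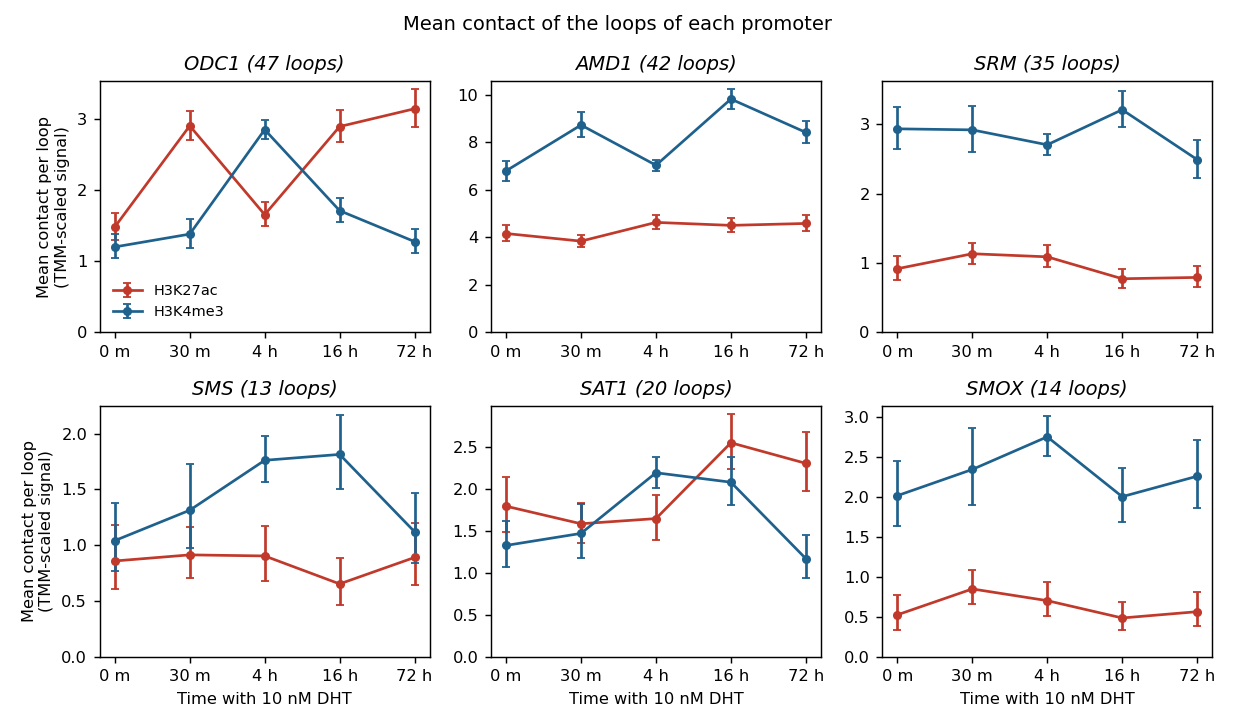
Mean contact per loop (vertical axis, TMM-scaled signal, linear and starting at 0) of each promoter at 0 m and at the 4 times of DHT, in H3K27ac (red) and H3K4me3 (blue), with bars for the 95% counting interval of the read pairs. ODC1 H3K27ac contact sits at 1.48 and 1.65 at 0 m and 4 h and between 2.90 and 3.15 at the other times, while its H3K4me3 contact peaks at 2.85 at 4 h.

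ODC1 (ENSG00000115758, minus strand, chr2:10580094-10588453 in hg19) had the largest H3K27ac changes of the 6 genes at 30 m, 16 h and 72 h over all its loops, but not at 4 h. Its mean H3K27ac contact per loop was 1.48 in vehicle and 2.91, 1.65, 2.90 and 3.15 along the DHT times, from 237, 759, 364, 641 and 562 read pairs. The tables at 30 m, 16 h and 72 h were thus high, those at 0 m and 4 h low, and their intervals did not overlap. The log2 change against 0 m was 0.97 at 30 m (95% interval 0.76 to 1.19), 0.16 at 4 h (-0.08 to 0.40), 0.97 at 16 h (0.75 to 1.19) and 1.09 at 72 h (0.86 to 1.31). Among all tested promoters the median changes were 0.27, 0.04, 0.16 and 0.17.

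In H3K4me3 the order of times differed. The mean contact was 1.20 in vehicle and 1.38, 2.85, 1.71 and 1.27 along the DHT times, so that 4 h, the lowest DHT time in H3K27ac, was the highest here. The log2 change was 1.25 at 4 h (1.04 to 1.47) and 0.51 at 16 h (0.26 to 0.76), and its interval included 0 at 30 m and 72 h. The H3K4me3 table at 4 h is also the one with the most read pairs, whose part in the result was not tested.

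At least 1.5-fold higher contact than at 0 m was seen for ODC1 and SMOX, 2 of the 6 genes, in H3K27ac at 30 m, where 18.8% of 12051 tested promoters passed that fold. In H3K27ac at 16 h and at 72 h only ODC1 passed it among the 6, with 18.5% and 17.9% of all tested promoters. In H3K4me3 at 4 h ODC1, SMS and SAT1 passed, 3 of 6 against 14.8% of all, and at 16 h SMS and SAT1, 2 of 6 against 3.90% of all. With tables scaled to equal totals the H3K4me3 change of SAT1 at 16 h was 0.51 on the log2 scale, under that fold. By the same scaling at 4 h, SMS (48 of 2567961 H3K4me3 read pairs in vehicle and 289 of 10675614 in DHT) and SAT1 (94 and 553) were also under that fold, so that ODC1 alone passed. The share of all promoters that pass under equal totals was not computed. These counts have no replicate check, and a share of 1 in 6 is near the H3K27ac background.

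**Figure D2:**
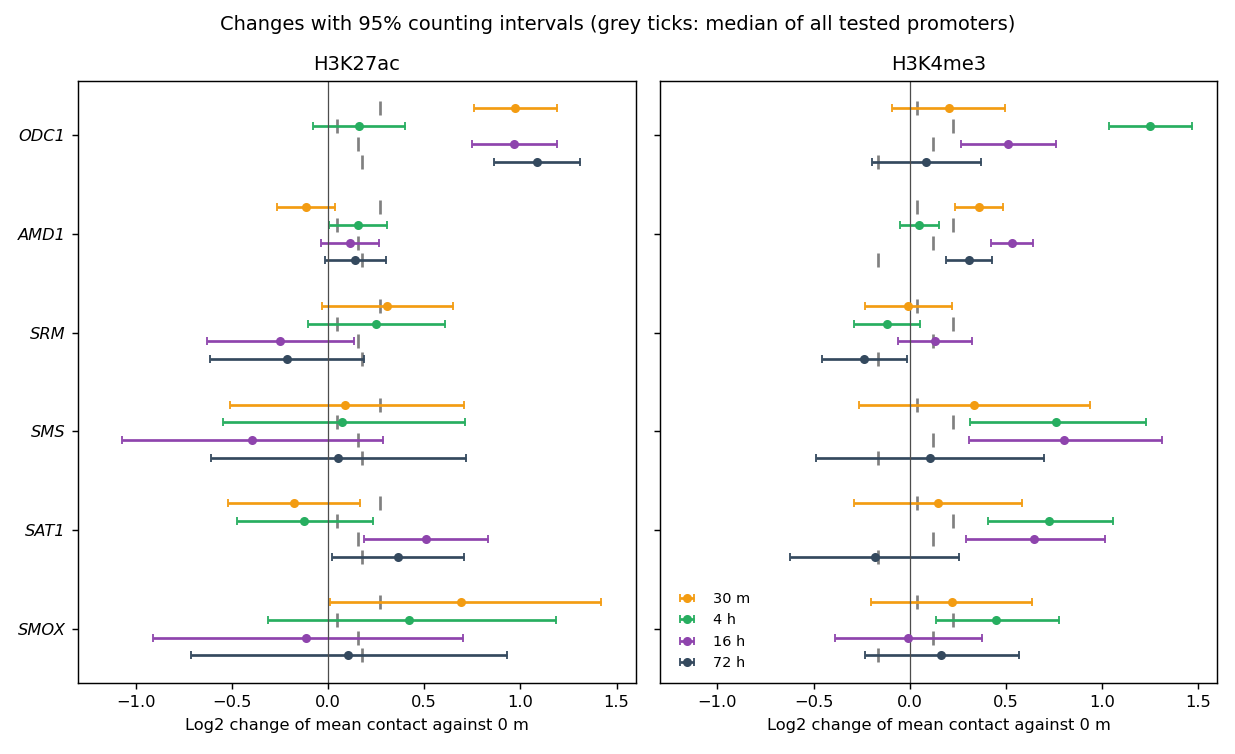
Log2 change of the mean contact per loop against 0 m (horizontal axis) for each gene at 30 m, 4 h, 16 h and 72 h, in H3K27ac (left) and H3K4me3 (right), with 95% counting intervals and a grey tick at the median of all tested promoters. The ODC1 points at 30 m, 16 h and 72 h lie between 0.97 and 1.09 in H3K27ac, and the widest bars belong to SMS and SMOX.

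Single loops showed that the ODC1 changes at 30 m and 16 h were built differently. At 30 m, 43 of the 47 loops had more H3K27ac contact than at 0 m. At 16 h, 30 were higher, 15 lower and 2 equal. The strongest loop of ODC1 joined adjacent 5 kb bins. Its far anchor, whose sequence is shown above, lies 4.05 kb upstream. That anchor overlaps an exon of the long non-coding gene ODC1-DT, which is transcribed away from ODC1, but the contact can lie elsewhere in the bin. The H3K27ac contact of this loop was 17.0 in vehicle and 38.9, 21.2, 64.8 and 53.2 along the DHT times, from 58, 216, 99, 305 and 202 read pairs.

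This loop took 24.5% of the H3K27ac contact of ODC1 at 0 m (exact binomial 95% interval 19.1% to 30.5%) and 47.6% at 16 h (43.7% to 51.5%). Its log2 change at 16 h was 1.93 (1.52 to 2.36). Of the 7 ODC1 loops with at least 30 H3K27ac read pairs over the 2 tables, it alone had an interval that excluded 0. Without it the log2 change of the gene was 0.44 at 16 h (0.17 to 0.71) but 0.89 at 30 m (0.65 to 1.15) and 0.85 at 72 h (0.59 to 1.12). The value at 16 h thus depended on a single loop between adjacent bins more than those at 30 m and 72 h did. Over all 52660 loops under 20 kb of the tables, H3K27ac contact was also higher at 16 h, by a log2 change of 0.55, against 1.52 (1.19 to 1.85) for the 3 ODC1 loops of that length. This value was set by the strongest loop, since the other two were at 0.53 (-0.57 to 1.72) and 0.50 (-0.19 to 1.23), near that of all short loops.

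The 39 ODC1 loops of 100 kb or more had an H3K27ac log2 change of 0.50 at 16 h (0.18 to 0.83), close to the other two short loops, where all loops of that length had -0.10, and the 5 loops of 20 to 100 kb had -0.16 (-1.05 to 0.74). Of the long loops, 12 ended in NOL10, which codes for a nucleolar protein, 119 kb to 239 kb upstream. Their mean H3K27ac contact was 1.64 in vehicle and 2.80, 2.07, 2.48 and 3.40 along the DHT times, with log2 changes of 0.77 at 30 m (0.36 to 1.20), 0.59 at 16 h (0.16 to 1.04) and 1.05 at 72 h (0.63 to 1.49). In H3K4me3 the same loops were highest at 4 h, with 3.54 against 1.46 at 0 m. The strongest of them, 219 kb upstream in an exon of NOL10, had 16, 29, 26, 25 and 36 H3K27ac read pairs from 0 m to 72 h.

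The strongest contact of ODC1 with another promoter was that with RRM2, which codes for a subunit of ribonucleotide reductase, 326 kb downstream. It had an H3K27ac contact of 3.82, 5.04, 2.14, 4.25 and 5.26 from 0 m to 72 h, from 10 to 28 read pairs, and none of the 4 changes had an interval that excluded 0. In H3K4me3 it rested on 5 read pairs at 0 m and 114 at 4 h, a log2 change of 2.68 (1.41 to 4.33). A loop to chr2:10577001-10578000, past the 3′ end of ODC1, was the only one that passed the same rule in H3K4me3 at 16 h, where 3 loops had enough read pairs. It had 8 and 28 read pairs and a log2 change of 1.26 (0.09 to 2.61). Other promoters at the end of an ODC1 loop included those of NOL10 and HPCAL1, with mean H3K27ac contacts of 1.40 and 0.690.

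**Figure D3:**
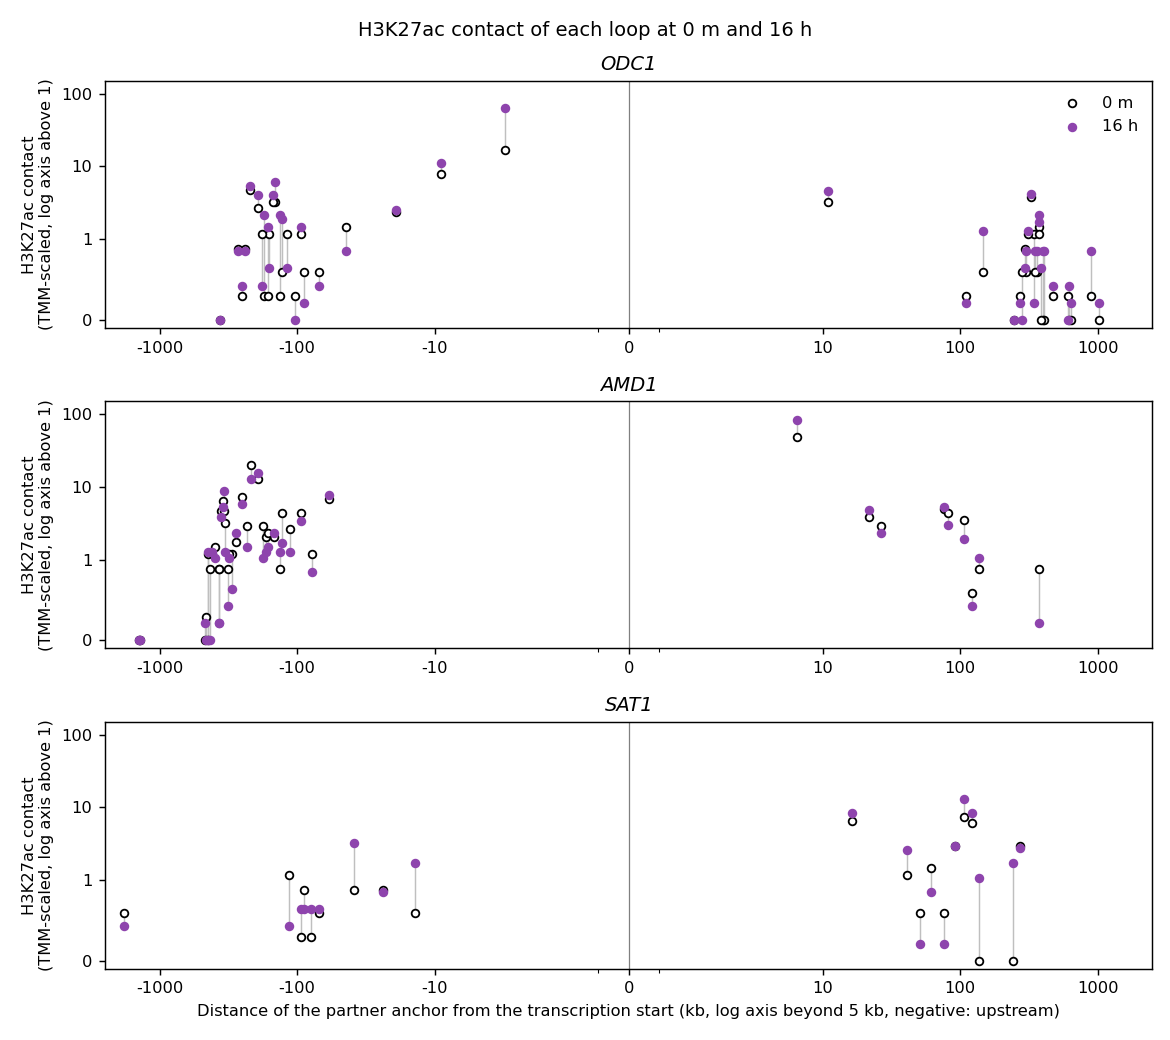
H3K27ac contact (vertical axis, TMM-scaled, log axis above 1) of each loop of ODC1, AMD1 and SAT1 against the distance of the partner anchor from the transcription start (horizontal axis in kb, log axis beyond 5 kb, upstream negative), at 0 m (open) and 16 h (filled), with a line joining the 2 values of a loop. At ODC1 the loop 4.05 kb upstream stands at 17.0 at 0 m and 64.8 at 16 h, and at AMD1 the loop 6.51 kb downstream stands above all others.

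AMD1 (ENSG00000123505, plus strand, chr6:111195988-111216916 in hg19) had the most contact and small changes in H3K27ac. Its H3K27ac loops held 594, 895, 909, 890 and 731 read pairs, a mean contact of 4.16 in vehicle and between 3.83 and 4.62 along the DHT times, and the log2 changes lay between -0.12 and 0.15. In H3K4me3 the values were 6.80, 8.73, 7.03, 9.82 and 8.42, with log2 changes of 0.36 at 30 m (0.24 to 0.49), 0.05 at 4 h (-0.05 to 0.15), 0.53 at 16 h (0.42 to 0.64) and 0.31 at 72 h (0.19 to 0.43). The H3K4me3 contact of AMD1 was thus higher at 3 of the 4 DHT times and not at 4 h, the time at which that of ODC1 peaked.

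The small H3K27ac change of AMD1 at 16 h was made up of a higher contact of its single loop under 20 kb and a lower contact of its loops of 100 kb or more, while the 7 loops of 20 to 100 kb were at -0.05 (-0.44 to 0.35). In the tables as a whole, loops under 20 kb had a log2 change of 0.55 and those of 100 kb or more one of -0.10. The strongest loop also joined adjacent bins, with its far anchor in an intron of AMD1 itself 6.51 kb downstream. It had an H3K27ac contact of 48.8 in vehicle and 54.3, 62.0, 83.9 and 80.3 along the DHT times, a log2 change of 0.78 at 16 h (0.52 to 1.05). In H3K4me3 it had 116, 168, 115, 216 and 149, and its mean lay above that of 99.9992% of all loops. Its share of the H3K27ac contact of AMD1 was 27.9% at 0 m (24.4% to 31.7%) and 44.4% at 16 h (41.1% to 47.7%). Leaving it out gave AMD1 an H3K27ac log2 change of -0.26 and an H3K4me3 one of 0.22 at that time, and with it but with tables scaled to equal totals the H3K27ac change was -0.13. The 34 loops of 100 kb or more had lower H3K27ac contact at 16 h than at 0 m, with a log2 change of -0.33 (-0.55 to -0.11), but not lower H3K4me3 contact (0.21, 0.04 to 0.39, where all loops of that length had 0.16).

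Of the AMD1 loops, 14 ended 58.5 kb to 253 kb upstream in CDK19, a kinase of the Mediator complex. Their mean H3K27ac contact was 5.21 in vehicle and 3.86, 4.59, 4.16 and 4.40 along the DHT times, with log2 changes of -0.43 at 30 m (-0.68 to -0.18) and -0.33 at 16 h (-0.58 to -0.07). The intervals at 4 h (-0.18) and 72 h (-0.24) included 0. In H3K4me3 the same loops had changes of 0.08, -0.10, 0.09 and 0.01 along the DHT times, all with intervals that included 0. Among these 14 loops the one 218 kb upstream in an intron of CDK19 had 68, 49, 74, 61 and 47 H3K27ac read pairs and a log2 change of -0.63 at 16 h (-1.15 to -0.11). The loop to the promoter of CDK19, 58.5 kb upstream, had 23, 39, 38, 37 and 35 H3K27ac read pairs and a change of 0.22 (-0.57 to 1.03) at 16 h. Further upstream, a loop of 338 kb was higher in H3K27ac at 16 h (0.89, 0.02 to 1.82) and one of 358 kb in H3K4me3 (1.33, 0.38 to 2.39). The promoters of GTF3C6 and RPF2, 81.5 kb and 107 kb downstream, were the other strong promoter partners, with mean H3K27ac contacts of 4.02 and 2.63.

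SRM (ENSG00000116649, minus strand, chr1:11114646-11120075 in hg19) showed little change in either mark. Its mean H3K27ac contact was 0.915, 1.13, 1.09, 0.770 and 0.789 from 0 m to 72 h and its H3K4me3 contact 2.93, 2.92, 2.70, 3.21 and 2.49. The single change whose interval excluded 0 was that of H3K4me3 at 72 h, with a log2 change of -0.24 (-0.46 to -0.02), where the median of all promoters was -0.16. This interval included 0 over loops of at least 20 kb (-0.07, -0.37 to 0.23) and without the strongest loop (-0.15, -0.42 to 0.11). With tables scaled to equal totals, the H3K27ac change at 16 h went from -0.25 (-0.63 to 0.13) to -0.50 (-0.88 to -0.11). The SRM window holds anchors of 2 neighbouring bins, and the strongest loop joined these 2, with H3K4me3 contacts of 32.2, 35.9, 29.6, 33.2 and 23.6. SRM had 12 distinct coding promoters at the ends of its loops, the most of the 6 genes. Of these, EXOSC10 (an exosome subunit, mean H3K4me3 contact 7.05 for its stronger loop, 37.4 kb away) and TARDBP (an RNA-binding protein, 4.84, 47.6 kb away) were the strongest. The TARDBP loop was the only SRM loop past the rule for single loops, where 8 loops had enough read pairs in H3K4me3 and 2 in H3K27ac. It had 16 H3K4me3 read pairs at 0 m and 46 at 16 h, a log2 change of 0.98 (0.13 to 1.90).

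SMS (ENSG00000102172, plus strand, chrX:21958827-22012955 in hg19) had the fewest loops of the 6 genes. Its mean H3K4me3 contact was 1.04 in vehicle and 1.31, 1.76, 1.81 and 1.12 along the DHT times, with log2 changes of 0.76 at 4 h (0.31 to 1.23) and 0.80 at 16 h (0.31 to 1.31), where the medians of all promoters were 0.22 and 0.12. Of its 13 loops, 11 had more H3K4me3 contact at 16 h than at 0 m. The mean H3K27ac contact was 0.859, 0.914, 0.904, 0.653 and 0.891 and rested on 38 to 66 read pairs per table, and no change had an interval that excluded 0 (-0.39 at 16 h, -1.07 to 0.28). The direction at 16 h depended on the loops taken, with 0.24 (-0.63 to 1.14) over the 3 loops of a mean contact of at least 1 and -0.96 (-1.82 to -0.13) without the strongest loop. The strongest H3K4me3 loop joined adjacent bins, with its far anchor 3.67 kb downstream in an intron of SMS, and had contacts of 4.79, 6.83, 8.08, 8.31 and 3.85. In H3K27ac it was a loop 33.7 kb downstream, also in an intron of SMS, with 7, 22, 11, 18 and 17 read pairs. At the promoter of MBTPS2, 101 kb upstream, 56 H3K4me3 read pairs were found over the 5 tables.

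SAT1 (ENSG00000130066, plus strand, chrX:23801290-23804327 in hg19), the gene of polyamine acetylation, had more contact at 16 h in both marks, although the H3K27ac difference depended on the scaling. Its mean H3K27ac contact was 1.79 in vehicle and 1.58, 1.65, 2.55 and 2.30 along the DHT times, with log2 changes of 0.51 at 16 h (0.19 to 0.83) and 0.36 at 72 h (0.02 to 0.71). With tables scaled to equal totals the change at 16 h was 0.26 (-0.06 to 0.59), and over loops of at least 20 kb that at 72 h was 0.28 (-0.11 to 0.67), so that both intervals then included 0. In H3K4me3 the mean contact was 1.33, 1.47, 2.19, 2.08 and 1.17, with log2 changes of 0.72 at 4 h (0.41 to 1.06) and 0.65 at 16 h (0.29 to 1.01), where the medians of all promoters were 0.22 and 0.12. H3K4me3 contact was thus already high at 4 h, where H3K27ac contact was not, and it was low again at 72 h, where H3K27ac contact was not. At 16 h, 12 of 20 loops were higher in H3K27ac and 16 in H3K4me3.

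Unlike ODC1 and AMD1, SAT1 had its strongest partners, by the mean of the 5 tables of a mark, far away in introns of APOO, which codes for a mitochondrial protein. The anchor 106 kb downstream, which holds the forkhead motif and half-site shown above, had H3K27ac contacts of 7.35, 4.14, 5.77, 13.0 and 7.89 from 25, 23, 27, 61 and 30 read pairs. Its loop was not the strongest of SAT1 in H3K27ac at 30 m and at 4 h, where it held 13.1% and 17.5% of the contact. Its log2 change at 16 h was 0.82 in H3K27ac (0.12 to 1.55) and 1.35 in H3K4me3 (0.11 to 2.80). It was the only SAT1 loop past the rule for single loops in each mark, where 3 of the 20 loops had enough read pairs in H3K27ac and 2 in H3K4me3. Without it the H3K27ac change of SAT1 at 16 h was 0.41 (0.05 to 0.79). The anchor 121 kb downstream, the strongest in H3K4me3, had contacts of 4.79, 3.42, 9.19, 7.15 and 3.85 in that mark. The 7 SAT1 loops of 100 kb or more had an H3K27ac change of 0.60 (0.15 to 1.06) at 16 h, where all loops of that length had -0.10, and the 2 loops under 20 kb had 0.50 (-0.24 to 1.27), where all short loops had 0.55. Its strongest promoter partners were ACOT9, EIF2S3 and KLHL15, of which ACOT9, 38.8 kb upstream, had 3, 11, 7, 15 and 13 H3K27ac read pairs. A short coding entry, ENSG00000288706, is annotated inside SAT1, so that all 20 loops also fall to it.

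SMOX (ENSG00000088826, plus strand, chr20:4129475-4168374 in hg19) had the least H3K27ac contact. Its mean was 0.525, 0.848, 0.702, 0.485 and 0.564, from 25 to 66 read pairs per table, and the log2 change at 30 m was 0.69 (0.01 to 1.42). This value rested on short loops, since it was -0.26 (-1.48 to 1.01) over the loops of at least 20 kb, and 0.58 (-0.24 to 1.46) without the strongest loop. The mean H3K4me3 contact was 2.01 in vehicle and highest at 4 h, with 2.75, a log2 change of 0.45 (0.14 to 0.77) where the median of all promoters was 0.22. It was close to the vehicle value at 16 h (-0.01, -0.39 to 0.37). The interval at 4 h included 0 over loops of at least 20 kb (0.34, lower bound -0.27) and without the strongest loop (0.28, -0.13 to 0.71). The strongest loop in both marks joined adjacent bins, with its far anchor 3.03 kb downstream in an intron of SMOX, and had H3K4me3 contacts of 11.3, 13.7, 17.9, 13.3 and 12.9. Its promoter partners, MAVS and RNF24, had mean H3K4me3 contacts of 0.369 and 0.599.

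**Figure D4:**
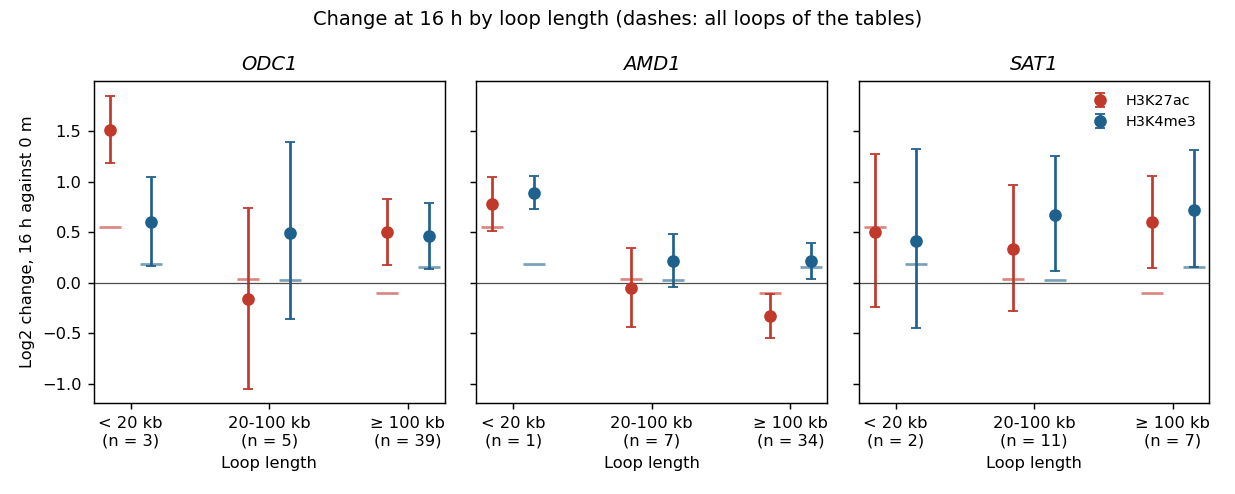
Log2 change of contact at 16 h against 0 m (vertical axis) for the loops of ODC1, AMD1 and SAT1 in 3 classes of loop length (horizontal axis, number of loops below), in H3K27ac (red) and H3K4me3 (blue), with 95% counting intervals and dashes at the value of all loops of the tables. The H3K27ac point of ODC1 is at 1.52 under 20 kb, set by 1 of its 3 loops, and at 0.50 at 100 kb or more, that of AMD1 at 0.78 (1 loop) and -0.33, and that of SAT1 at 0.50 and 0.60.

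The rest of the pathway was taken as a list of 31 genes of antizymes and their inhibitors, other catabolism, transport, precursor supply, methylthioadenosine salvage and hypusination, of which 30 had loops. In H3K27ac at 16 h, 7 of the 26 with at least 50 read pairs were at least 1.5-fold higher than at 0 m and 1 was at least 1.5-fold lower, where 18.5% and 7.97% of all tested promoters passed. The median log2 change was 0.16, the same as that of all promoters at this precision. The largest were ARG1 (arginase, which makes ornithine, 1 loop, log2 change 1.34, 0.79 to 1.92), OAZ3 (an antizyme, which inhibits ornithine decarboxylase, 24 loops, 1.15, 0.93 to 1.37) and PAOX (a polyamine oxidase, 1 loop, 1.01, 0.42 to 1.63). The ARG1 loop had 311 H3K27ac but 20 H3K4me3 read pairs over the 5 tables of each mark. Whether the windows of these genes are shared with other coding promoters was not examined. The lower one was DOHH (deoxyhypusine hydroxylase, 31 loops), with a mean contact of 2.04 at 0 m and 1.25 at 16 h and a log2 change of -0.71 whose upper bound was -0.42. In H3K4me3 at 16 h none of 26 passed the fold in either direction, where 3.90% of all tested promoters were higher and 0.520% lower, with log2 changes from -0.52 to 0.46.

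Promoters elsewhere in the genome with a time course most like that of each gene were found by Pearson's r of the log2 mean contact over the 10 tables, centred within each mark, as a description, since all promoters are measured in the same tables. For ODC1 these were TBC1D12 (r = 0.990) and ATG10 (r = 0.988), and 606 of 10034 promoters had an r over 0.9. For SAT1 it was SP3 (r = 0.991), for SRM they were SLC25A5 (r = 0.977) and ILVBL (r = 0.976), and for SMS LCMT1 (r = 0.980) and IAH1 (r = 0.978). SMOX was most like E2F7 (r = 0.922) and ZNF273 (r = 0.916). AMD1 had the least close neighbours, ZNF24 (r = 0.896) and APBA1 (r = 0.877), and no promoter over 0.9.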

How the data were processed

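HiChIP of H3K27ac and H3K4me3 was performed by the authors in LNCaP cells. Per the labels and methods, reads were trimmed with Trim Galore 0.5.0 and aligned to hg19 with HiC-Pro 3.1.0 (Bowtie2), and loops were called in 5 kb bins on merged read pairs of a mark. The deposited contact signal was scaled by the authors with TMM. Dividing each table by its smallest step gave whole read pairs for 100% of values (tolerance 1e-06). It is not stated in the sources used here if a value pools the 2 H3K27ac replicates, so no test between replicates was made.

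Promoters came from Gencode release 44 lifted to GRCh37, and sequences from GRCh37. Changes are ratios of mean contact with exact conditional (Clopper-Pearson) 95% intervals, those of mean levels are exact Poisson, and scripts were tested on simulated data. All 10 tables entered, grouped by mark and time from the labels, and backgrounds use promoters with at least 50 read pairs over the 2 tables. Named were all 6 genes, pathway genes past 1.5-fold at 16 h (at most 3 each way), the 2 most alike promoters on other chromosomes (at least 200 read pairs per mark and 10 per table; 1 is not reported here), the strongest promoter partners, and loops that were the strongest or had at least 30 read pairs and an interval excluding 0 at 16 h. The loop 219 kb upstream of ODC1, loops grouped by NOL10 and CDK19, the SAT1 loop inside SMS, the distance classes and the loop-length and strongest-loop alternatives outside 16 h were chosen after values were seen. Members and lists were chosen with earlier results of these data known. Alternatives varied scaling, window, loop length, loop set, weak loops and the strongest loop. Scripts ran under Python 3.11.15 with scipy 1.17.1 for the intervals, pandas 2.3.3 and numpy 2.4.6.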

Additional observations from a re-analysis of the deposited data

Results flagged for a closer look

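In 3 cases the marks moved in opposite directions with counting intervals that did not overlap, although the difference itself was not tested between replicates. For SMS at 16 h the log2 change was 0.80 in H3K4me3 and -0.39 in H3K27ac, 1.20 apart, but the H3K27ac value was 0.24 (-0.63 to 1.14) over loops of a mean contact of at least 1, so that the opposite direction did not hold there. For SAT1 at 4 h it was 0.72 in H3K4me3 and -0.12 in H3K27ac, 0.85 apart, and the H3K4me3 table of that time is the one with most read pairs, whose part was not tested. For AMD1 at 30 m it was 0.36 in H3K4me3 and -0.12 in H3K27ac, 0.48 apart. Of the single H3K27ac values in these pairs, none had an interval that excluded 0.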

How the results depend on the processing

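No paired analysis was possible because the tables carry no replicate number and no result comes from a test. Of 88 values of the 12 changes at 16 h under alternatives, 77 kept the sign and 78 lay within the main interval. Part of this agreement was fixed in advance, because some alternatives kept the same loops. The rule that the bin covers the window did so for all genes but SRM, and the 1 kb window for ODC1, SMS and SAT1. For AMD1, and for SMS in H3K4me3, the loop-length and strongest-loop alternatives also took the same loops as each other. With equal totals in place of TMM the H3K27ac change was 0.72 for ODC1 and -0.13 for AMD1, and the H3K4me3 change of AMD1 was 0.40. Over loops of at least 20 kb it was 0.42 for ODC1 H3K27ac, -0.26 for AMD1 H3K27ac and 0.22 for AMD1 H3K4me3, and without the strongest loop 0.44, -0.26 and 0.22. The H3K27ac change of SMS over loops of its own set was -2.05, from 2 loops, against 0.24 over loops of a mean contact of at least 1, where that of SMOX also turned to 0.24. For SAT1 equal totals gave 0.26 (-0.06 to 0.59) in H3K27ac and for SRM -0.50 (-0.88 to -0.11), and the own loop set gave 0.20 (0.04 to 0.37) for AMD1 and 0.10 (-0.39 to 0.60) for SRM. SMOX H3K27ac at 30 m turned to -0.26 over loops of at least 20 kb, an alternative chosen after seeing the data. With a window of 1 kb, AMD1, SRM and SMOX had 0 loops, because the middle of their bins lies farther from the start, and no change could be computed. SRM had 4 loops where its bin had to cover the window and 23 without those of other promoters, and SAT1 had 0 without them. The strongest H3K27ac loop held 24.5% at 0 m and 47.6% at 16 h for ODC1, 27.9% and 44.4% for AMD1, and 25.4% at 16 h for SAT1, and in H3K4me3 40.7% and 52.3% for AMD1. The low H3K27ac read pairs of SMS and SMOX limit what changes could be seen there.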
